A study of Mus musculus with 6 samples.

Results

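Peroxisomes were followed through 39 genes: 13 peroxins, 21 enzymes of the peroxisome interior (the matrix) and 5 proteins of its membrane. The genes were chosen by name, but with earlier results of these data known. All 39 were found among the 23282 rows of the gene count files, and all 39 passed the filter on low counts. Brown adipose tissue (BAT) was taken at 5 weeks of age from 6 males, 3 of them wild-type and 3 homozygous for the Letmd1 KO allele, all on the C57BL/6N background, and its RNA was sequenced from the 3′ end of the transcripts. The KO mice carried a knockout-first allele in every tissue, in which a lacZ and neomycin cassette sits in the intron after the second exon of Letmd1, so the adipocytes were not the only cells without the gene. Each library came from 1 mouse. The labels name no treatment.

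Peroxisomes are small organelles that shorten very long and branched fatty acids, make the first intermediates of ether lipids and break down hydrogen peroxide. Peroxins build them: some place proteins in the membrane, others bring folded enzymes into the matrix, and others divide the organelle. Brown fat is rich in peroxisomes, which hand shortened acyl groups on to the mitochondria.

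The libraries held between 6669577 and 14574273 counts. The counts of Letmd1 itself, between 5266 and 6490 per wild-type mouse and at most 1 per KO mouse, matched the labels. Levels are given as CPM, read counts rescaled to a common library size by the TMM method. A floor of 3 counts was worth between 0.176 and 0.397 CPM, for counting error only. TMM factors were between 0.852 and 0.886 in wild-type and between 1.13 and 1.17 in KO mice, so a change of scaling shifts all genes together. Brown adipocyte markers (9 of 10 lower) summed to between 42442 and 48521 CPM in wild-type and between 13836 and 17735 CPM in KO mice. Macrophage markers (10 of 10 higher) went from between 191 and 259 CPM to between 1461 and 2601 CPM, and fibroblast markers (7 of 7 higher) from between 2181 and 2888 CPM to between 5947 and 10312 CPM. Of the nerve markers 4 of 5 were higher, of the endothelial markers 3 of 7 were lower, and of the erythroid and hepatocyte markers tested none was called. Muscle markers (2 of 10 higher) summed to 320 CPM in wild-type mouse 2, to 2.91 and 2.999 CPM in the other wild-type mice and to between 249 and 979 CPM in the KO mice. No list other than muscle had a marker at 0 in any mouse. Apart from the muscle level, which was tried as a covariate, the part of these cells in the results on peroxisomal genes was not tested, and in bulk tissue fewer cells of a type and less RNA per cell cannot be told apart.

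Most peroxisomal genes were lower in Letmd1 KO BAT. Of the 39 genes, 27 were lower (69.2%), 1 was higher (Far1) and 11 were not called at an adjusted p under 0.05, beside 22.3% lower, 23.7% higher and 46.0% called in either direction among all 12995 genes tested. The log2 fold change (KO against wild type) was below 0 for 38 of the 39. Every KO mouse lay below every wild-type mouse for 29 of them, against 27.2% of all genes, and above for 1, against 30.1%. Their median log2 fold change was -0.77, beside 0.03 for all genes tested. By at least 2-fold, 16 were lower and 0 higher, beside 3048 of all 12995 genes tested that passed this minimum in either direction. Together the 39 genes summed to 6257, 5992 and 6013 CPM in the wild-type mice and to 2754, 3181 and 3047 CPM in the KO mice. With libraries scaled by their size alone, the median of all genes tested was 0.45 and that of the 39 genes was -0.36, and 18 were lower and 2 higher, beside 10.5% and 45.4% of all genes tested.

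**Figure D1:**
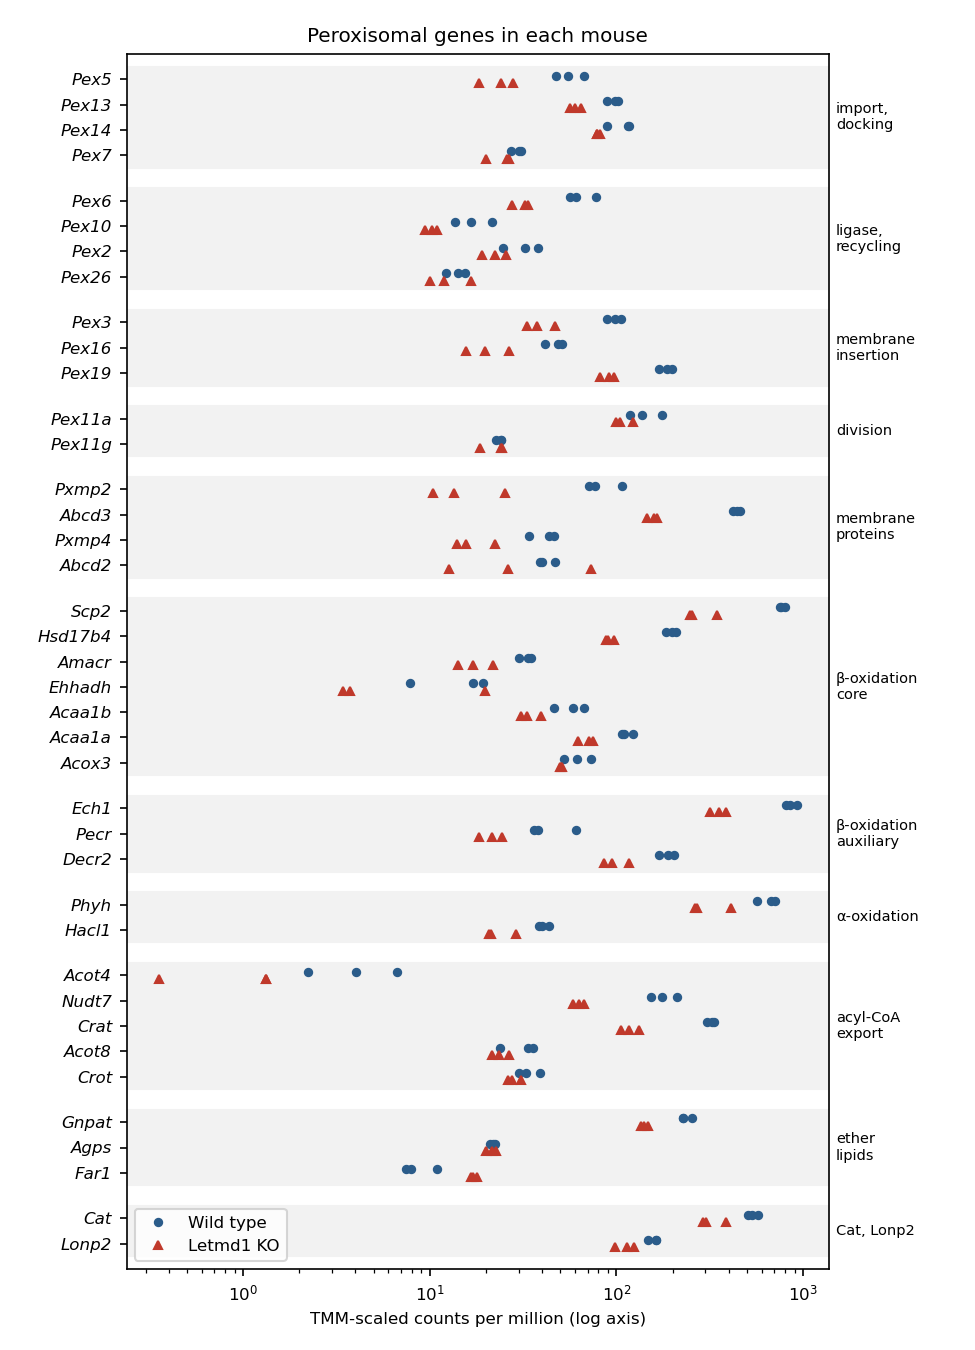
TMM-scaled CPM (log axis) of the 39 genes, grouped by role, with a blue circle for each wild-type mouse and a red triangle for each Letmd1 KO mouse. For 29 genes the KO mice lie below all wild-type mice, and for Far1 they lie above.

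Calls were set beside the wild-type level. Of the 15 genes with a mean of at least 100 CPM in wild-type BAT, 14 were lower, where 54.4% of all genes tested at that level were lower. Of the 24 under that level 13 were lower, where 16.7% of all such genes were lower. Pex11a was the abundant gene that did not pass.

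Far1 and Pex3 moved in opposite directions, and their promoters are shown because both windows hold 28 CG dinucleotides. Pex3, which anchors the import of membrane proteins, lies on the minus strand of chromosome 10 from 13523842 to 13553142, and Far1, which makes the fatty alcohols for ether lipids, occupies bases 113513834 to 113571511 of chromosome 7, plus strand (GENCODE annotation of GRCm38, the assembly also called mm10). The windows, from RefSeq on GRCm38.p6, run from 250 bases before to 50 bases after the annotated start, on the strand of the gene. Their positions are chr10:13553093-13553392 for Pex3 and chr7:113513584-113513883 for Far1, and capitals mark each CG.
Pex3: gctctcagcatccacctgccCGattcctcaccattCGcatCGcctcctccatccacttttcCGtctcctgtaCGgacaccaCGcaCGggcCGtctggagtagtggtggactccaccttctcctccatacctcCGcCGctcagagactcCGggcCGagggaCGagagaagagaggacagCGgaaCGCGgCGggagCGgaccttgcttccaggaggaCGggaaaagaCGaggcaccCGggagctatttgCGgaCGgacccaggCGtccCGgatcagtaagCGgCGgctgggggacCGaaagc
Far1: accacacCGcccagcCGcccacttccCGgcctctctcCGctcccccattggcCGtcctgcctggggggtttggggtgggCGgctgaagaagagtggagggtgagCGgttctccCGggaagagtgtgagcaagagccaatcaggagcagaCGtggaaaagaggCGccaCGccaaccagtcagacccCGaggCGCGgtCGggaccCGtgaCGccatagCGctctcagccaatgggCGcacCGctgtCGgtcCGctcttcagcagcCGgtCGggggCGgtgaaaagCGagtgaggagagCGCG
GC content was 64.3% in the Pex3 window and 67.7% in the Far1 window. RefSeq windows were found for 32 of the 39 genes, 38 windows in all, with a median of 16.5 CG dinucleotides beside 20.0 for the windows of all genes tested and 7.0 for all promoters. A direct repeat of AGGTCA with 1 base between the copies, the DR1 element that PPAR and RXR receptors bind, was searched on both strands and was in the windows of 0 of the 32 genes. It was in those of 0.0481% of all genes with a window. With the fourth base of each copy left free (AGGNCA) it was again in 0 of 32, beside 0.451% of all. A search for TNAAGGTCA (N is any base), called the ERR element, gave 0 of 32 too, beside 1.43% of all genes with a window. With shares this low, 0 was the likely result for any 32 genes, so these searches cannot set the peroxisomal genes apart. They say only that these letters are not in windows of 300 bases.

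Peroxins were lower in part. Of the 13, 8 were lower (61.5%, beside 22.3% of all genes tested), none was higher and 5 were not called. The KO mice lay below the wild-type mice for 9, against 27.2% of all genes. With libraries scaled by size alone 5 were lower, beside 10.5% of all genes tested. Their median log2 fold change was -0.67, with a range from -1.32 to -0.06. Summed over the 13 genes the level was between 900 and 934 CPM in wild-type and between 513 and 583 CPM in KO mice.

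The peroxins that place membrane proteins were all lower. Pex3 had 106, 97.9 and 88.7 CPM in the wild-type mice and 33.1, 46.7 and 37.6 CPM in the KO mice, a log2 fold change of -1.32 ± 0.15 (SE, adjusted p = 0.000107), the most negative among the peroxins. Pex19, the soluble carrier that brings membrane proteins to Pex3, had 186, 199 and 168 CPM in the wild-type mice and 81.2, 97.1 and 91.2 CPM in the KO mice (log2 fold change -1.04 ± 0.11, adjusted p = 0.000107). Neither gene overlapped between the genotypes. Pex16, which helps Pex3 reach the membrane, changed by -1.19 ± 0.20 (adjusted p = 0.00107).

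The matrix import machinery was lower for its main receptor but not for every part. Pex5, the receptor that carries most matrix enzymes, had 55.0, 67.3 and 47.6 CPM in the wild-type mice and 24.1, 27.8 and 18.3 CPM in the KO mice (log2 fold change -1.29 ± 0.19, adjusted p = 0.000552). Pex7, the receptor for the few enzymes with an amino-terminal signal, had 27.3, 30.9 and 30.1 CPM in the wild-type mice and 26.6, 20.1 and 26.1 CPM in the KO mice (-0.27 ± 0.15, adjusted p = 0.165). The KO mice lay below the wild-type mice for both receptors, with a wide gap for Pex5 and a narrow gap for Pex7. Counts of Pex5 were 2.01, 2.18 and 1.58 times those of Pex7 in the wild-type mice and 0.905, 1.38 and 0.703 times in the KO mice, a ratio chosen after the values were seen. At the docking site, Pex14 had 116, 116 and 89.4 CPM in the wild-type mice and 78.5, 81.3 and 78.9 CPM in the KO mice (-0.43 ± 0.12, adjusted p = 0.0183). Its call was lost in 7 of 14 alternative fits. Pex13, its membrane partner, changed by -0.67 ± 0.11 (adjusted p = 0.000924).

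Receptor recycling was split too. Pex6, one of the ATPases that pull used receptors out of the membrane, had 56.1, 61.1 and 77.3 CPM in the wild-type mice and 27.6, 33.6 and 32.2 CPM in the KO mice (-1.06 ± 0.15, adjusted p = 0.000506). Pex26, the membrane anchor of those ATPases, had 12.3, 15.5 and 14.2 CPM in the wild-type mice and 11.9, 10.1 and 16.6 CPM in the KO mice (-0.11 ± 0.22, adjusted p = 0.720). The genotypes overlapped for Pex26 and did not for Pex6. Of the RING-finger ubiquitin ligases that mark the receptors, Pex10 was lower (-0.77 ± 0.20, adjusted p = 0.0130) and Pex2 did not pass (-0.50 ± 0.19, adjusted p = 0.0549). Pex10 lost its call in 3 of 14 alternative fits, among them those without wild-type mouse 2 and without KO mouse 3, and Pex2 passed in 6 of 14, so no difference between these ligases is drawn.

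Neither gene for division passed the test. Pex11a, the form that PPARα activation induces in liver, had 138, 118 and 176 CPM in the wild-type mice and 105, 123 and 99.8 CPM in the KO mice (-0.40 ± 0.16, adjusted p = 0.0620). Pex11g had 22.5, 24.1 and 24.0 CPM in the wild-type mice and 24.5, 18.7 and 24.1 CPM in the KO mice (-0.06 ± 0.15, adjusted p = 0.753). Both overlapped between the genotypes, Pex11a through KO mouse 2 and Pex11g through KO mice 1 and 3.

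**Figure D2:**
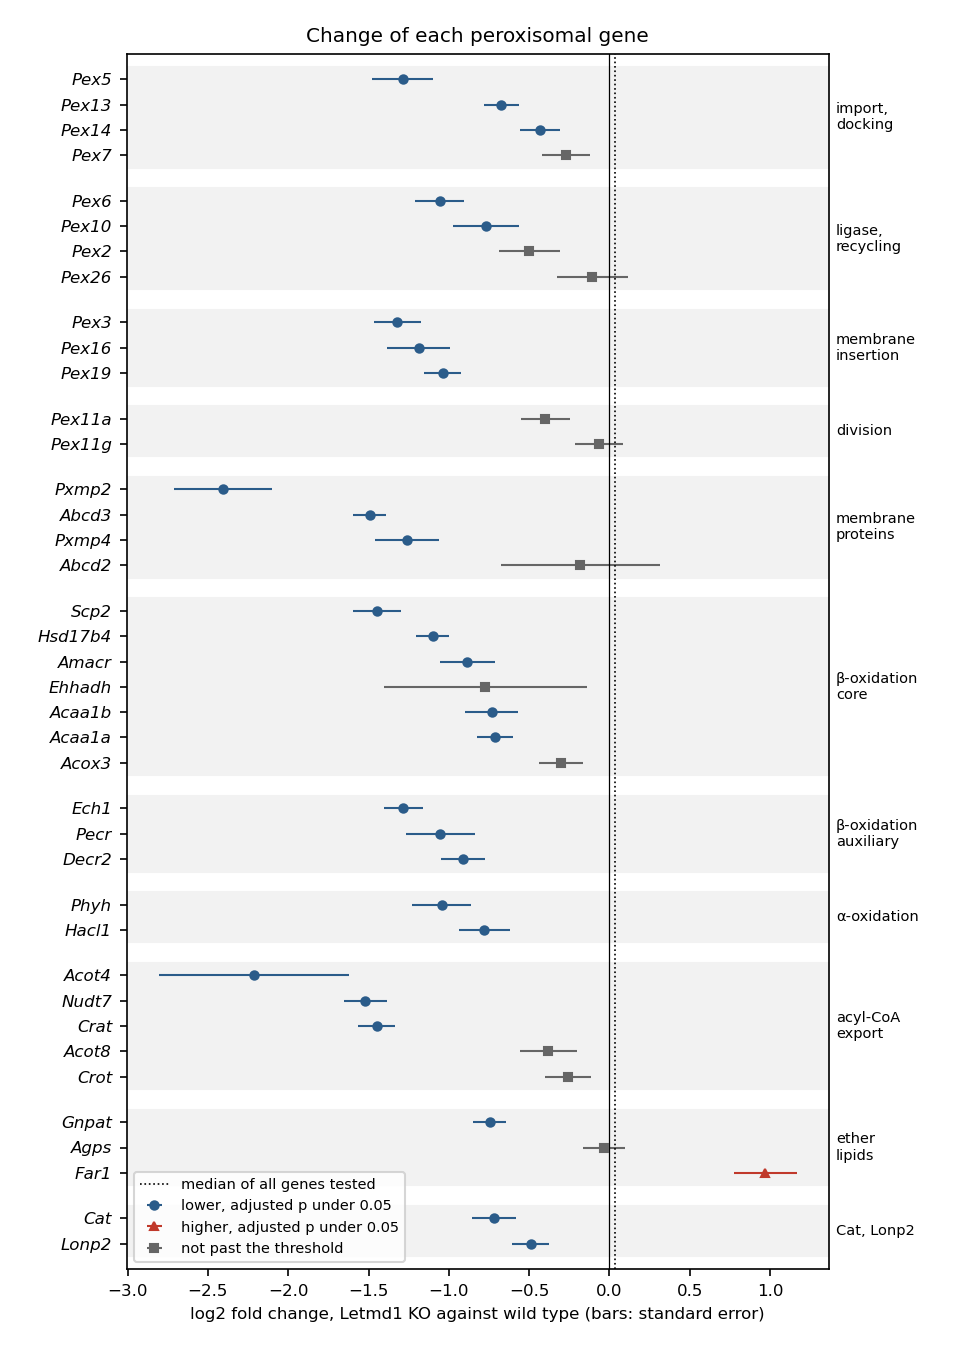
Log2 fold change of each of the 39 genes (Letmd1 KO against wild type) with its standard error, grouped by role. Blue circles passed as lower (27), the red triangle as higher (Far1), and grey squares did not pass (11); the dotted line is the median of all genes tested, 0.03.

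Of the 5 membrane proteins outside the peroxins, 3 were lower, Abcd2 was not called and Far1, described with the ether lipid genes, was higher. Abcd3 (also called PMP70), which carries acyl-CoA into the organelle, had 458, 443 and 421 CPM in the wild-type mice and 164, 146 and 160 CPM in the KO mice (log2 fold change -1.49 ± 0.10, adjusted p = 1.17e-05). Pxmp2, a channel for small solutes, had 107, 71.0 and 76.8 CPM in the wild-type mice and 13.5, 25.1 and 10.4 CPM in the KO mice (-2.40 ± 0.31, adjusted p = 0.000241). The highest KO mouse stayed under the lowest wild-type mouse for both, and Pxmp2 had the most negative change of the 39 genes. Of the stretches of 75 bases in the last 500 bases of the Pxmp2 transcripts, 13.4% also occur on the opposite strand of Gm15788, and since the sources used here do not say whether strand was used in counting, reads of the pair cannot be told apart. Pxmp4, a membrane protein of unclear role, changed by -1.26 ± 0.20 (adjusted p = 0.00082).

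Abcd2, a transporter of very long chain acyl-CoA that is abundant in fat, rested on 1 mouse. It had 40.1, 46.6 and 38.7 CPM in the wild-type mice and 26.4, 73.4 and 12.7 CPM in the KO mice (-0.18 ± 0.50, adjusted p = 0.790). KO mouse 2 was above all wild-type mice and the other KO mice were below them. Without KO mouse 2 the log2 fold change was -1.12 (adjusted p = 0.0118), and without KO mouse 3 it was 0.25 (adjusted p = 0.619).

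Of the 21 matrix enzymes, 16 were lower (76.2%, beside 22.3% of all genes tested), none was higher and 5 were not called. The KO mice lay below the wild-type mice for 17, against 27.2% of all genes. With libraries scaled by size alone 10 were lower and 1 (Agps) was higher, beside 10.5% and 45.4% of all genes tested. With the muscle marker level as a covariate 10 were lower, where 3456 of all 12995 genes tested passed in either direction. Their median log2 fold change was -0.78, with a range from -2.21 to -0.03. Summed over the 21 genes the level was between 4447 and 4695 CPM in wild-type and between 2006 and 2315 CPM in KO mice.

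Peroxins and matrix enzymes were set side by side within each mouse. The mean log2(CPM + 1) of the matrix enzymes was above that of the peroxins by 0.96, 0.81 and 0.90 in the wild-type mice and by 0.69, 0.77 and 0.68 in the KO mice. The highest KO mouse lay just under the lowest wild-type mouse. The share called lower was 76.2% of matrix enzymes against 61.5% of peroxins, beside 22.3% of all genes tested. DESeq2 called 16 of 21 against 10 of 13, and with the muscle covariate 10 of 21 and 7 of 13 were called. The shares are not matched for level, which was higher for matrix enzymes. Of all genes tested, 54.4% of those with at least 100 CPM in wild type were lower, against 16.7% of those under it. The comparison of the groups is a description with no test, and the medians of the log2 fold changes, -0.67 and -0.78, each lay within the range of the other group.

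In the β-oxidation core, 5 of 7 genes were lower. Scp2, whose longer product is the thiolase for branched chains, had 751, 762 and 804 CPM in the wild-type mice and 254, 348 and 249 CPM in the KO mice (log2 fold change -1.45 ± 0.15, adjusted p = 6.95e-05). Hsd17b4, the multifunctional enzyme for branched and very long chains, had 198, 184 and 209 CPM in the wild-type mice and 97.1, 90.0 and 88.5 CPM in the KO mice (-1.10 ± 0.10, adjusted p = 4.24e-05). Acaa1a, the thiolase for straight chains, had 123, 108 and 110 CPM in the wild-type mice and 71.0, 62.5 and 74.5 CPM in the KO mice (-0.71 ± 0.11, adjusted p = 0.000877). The genotypes did not overlap for any of these enzymes. Acaa1b, its close copy, changed by -0.73 ± 0.16 (adjusted p = 0.00566), and Amacr, the racemase that readies branched chains for oxidation, by -0.88 ± 0.17 (adjusted p = 0.00279).

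The levels of genes with near-identical copies are less certain. Of the stretches of 75 bases in the last 500 bases of GENCODE transcripts, 23.2% of those of Acaa1a also occur in Acaa1b, and 29.0% of those of Scp2 occur in the pseudogene Scp2-ps2. Since multiple alignments were counted, the copies may share reads. Acaa1a had 2.11, 2.33 and 1.64 times the counts of Acaa1b in the wild-type mice and 2.13, 1.58 and 2.43 times in the KO mice, with overlap. Acaa1b also shares 35.2% with the opposite strand of Dlec1, but few reads were counted to Dlec1 (mean of 0.344 CPM in wild-type and 0.0733 CPM in KO mice). Of the 39 genes, 27 share no such stretch with another gene.

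The remaining core genes did not pass. Acox3, an oxidase for branched chains, had 73.5, 61.2 and 52.2 CPM in the wild-type mice and 49.7, 50.7 and 51.3 CPM in the KO mice (-0.30 ± 0.14, adjusted p = 0.103). Ehhadh, the multifunctional enzyme for straight chains and a classic PPARα target, had 7.87, 19.3 and 16.9 CPM in the wild-type mice and 3.74, 19.7 and 3.41 CPM in the KO mice (-0.77 ± 0.63, adjusted p = 0.348). As for Abcd2, KO mouse 2 was above all wild-type mice and the other KO mice were below them. Without that mouse the log2 fold change of Ehhadh was -2.04 (adjusted p = 0.00342). The hepatocyte markers summed to 91.2 CPM in the same mouse and to between 19.8 and 29.9 CPM in the other 5, of which Cyp2e1 made 89.3 CPM in KO mouse 2, while Alb had at most 10 counts in any mouse. KO mouse 2 stood apart in brown adipocyte markers too. Among the KO mice it had the highest Adipoq (1368 CPM) and Adrb3 (123 CPM) and the lowest Ucp1 (255 CPM) and Cidea (930 CPM). Whether any of these markers goes with the levels of Ehhadh and Abcd2 was not tested.

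**Figure D3:**
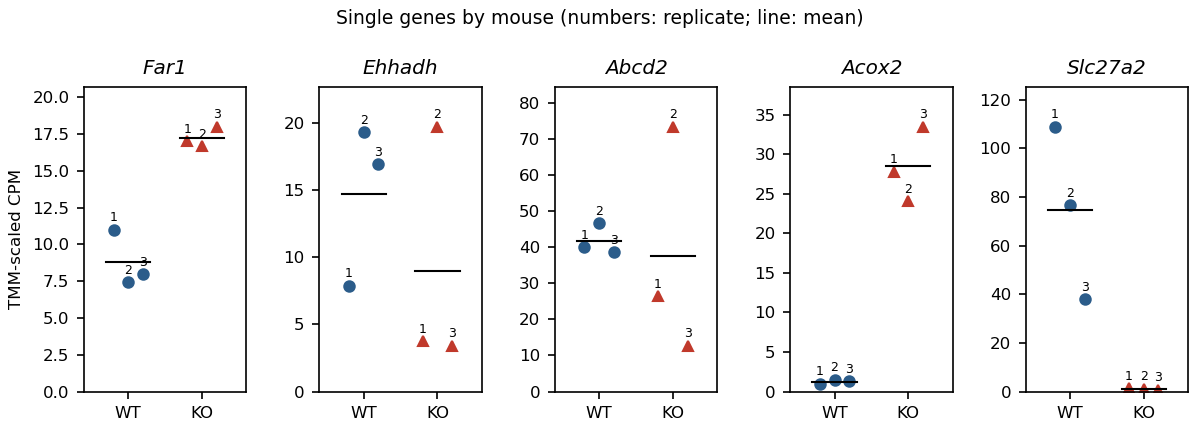
TMM-scaled CPM of 5 genes in each mouse, wild type (WT, circles) and Letmd1 KO (triangles), with replicate numbers and the mean of each genotype as a line. KO mouse 2 stands high for Ehhadh (19.7 CPM) and Abcd2 (73.4 CPM); Far1 and Acox2 are higher in all KO mice, and Slc27a2 lies between 0.706 and 1.43 CPM in KO mice.

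The auxiliary enzymes of β-oxidation, which handle double bonds, were lower in 3 of 3 cases. Ech1, an isomerase also found in mitochondria, had 926, 808 and 847 CPM in the wild-type mice and 318, 356 and 386 CPM in the KO mice (log2 fold change -1.28 ± 0.12, adjusted p = 4.63e-05). Decr2, the peroxisomal dienoyl-CoA reductase, had 189, 203 and 168 CPM in the wild-type mice and 85.6, 94.6 and 117 CPM in the KO mice (-0.91 ± 0.14, adjusted p = 0.000641). Ech1 was the most abundant of the 39 genes in wild-type BAT, and neither gene overlapped. Pecr, the trans-enoyl-CoA reductase, changed by -1.05 ± 0.21 (adjusted p = 0.00337).

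Both genes of α-oxidation, which removes 1 carbon from phytanic acid, were lower. Phyh, the hydroxylase of the first step, had 709, 675 and 564 CPM in the wild-type mice and 263, 271 and 410 CPM in the KO mice (-1.04 ± 0.18, adjusted p = 0.00152). Hacl1, the lyase that follows, had 43.4, 38.4 and 39.8 CPM in the wild-type mice and 20.8, 29.0 and 21.3 CPM in the KO mice (-0.78 ± 0.16, adjusted p = 0.00333). The KO mice lay below the wild-type mice for both. Of the stretches of 75 bases of Hacl1, 38.3% also occur in Gm49387.

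Of the enzymes that release or pass on acyl groups, 3 of 5 were lower. Crat, the carnitine acetyltransferase of peroxisomes and mitochondria, had 325, 306 and 333 CPM in the wild-type mice and 116, 132 and 105 CPM in the KO mice (-1.45 ± 0.12, adjusted p = 2e-05). Nudt7, which cleaves coenzyme A, had 152, 176 and 211 CPM in the wild-type mice and 58.6, 62.7 and 66.7 CPM in the KO mice (-1.52 ± 0.14, adjusted p = 3.42e-05). Both fell in every KO mouse below the lowest wild-type mouse. Acot4, a thioesterase for dicarboxylic acyl-CoA, had only 17 to 62 counts per wild-type mouse and 6 to 12 per KO mouse (6.68, 4.03 and 2.22 CPM against 1.32, 1.32 and 0.353 CPM; log2 fold change -2.21 ± 0.59, adjusted p = 0.0133). Its call was lost without wild-type mouse 1, with the muscle covariate and with a filter at a mean of 50 counts. Crot, the octanoyltransferase that sends medium chains to mitochondria, had 30.2, 32.8 and 38.7 CPM in the wild-type mice and 30.8, 26.3 and 27.7 CPM in the KO mice (-0.26 ± 0.14, adjusted p = 0.165), with overlap through KO mouse 1. Acot8, a thioesterase of broad range, changed by -0.38 ± 0.18 (adjusted p = 0.105).

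The ether lipid genes went different ways. Far1 had 11.0, 7.42 and 7.95 CPM in the wild-type mice and 17.0, 16.7 and 18.0 CPM in the KO mice, from 61 to 102 counts and from 126 to 306 counts (log2 fold change 0.97 ± 0.20, adjusted p = 0.00331). Gnpat, which starts ether lipid synthesis in the matrix, had 255, 228 and 228 CPM in the wild-type mice and 136, 140 and 148 CPM in the KO mice (-0.75 ± 0.10, adjusted p = 0.000367). The genotypes did not overlap for either gene, with Far1 higher and Gnpat lower in every KO mouse. Agps, the enzyme that puts in the ether bond, changed by -0.03 ± 0.13 (adjusted p = 0.854), with 21.8 ± 0.733 CPM (SD, n = 3) in wild-type and 21.3 ± 1.32 CPM (SD, n = 3) in KO mice. Within each mouse, Far1 had 0.0435, 0.0330 and 0.0355 times the counts of Gnpat in the wild-type mice and 0.126, 0.120 and 0.122 times in the KO mice. This ratio was chosen after the values were seen. It does not depend on a factor that scales a whole library, but it was not computed after quantile normalization, which can change such ratios. Far1 was called higher in all 14 alternative fits, and at 1.96-fold it fell short of a 2-fold minimum. Its paralog Far2, outside the 39 genes, was lower (-0.49 ± 0.11, adjusted p = 0.00644).

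Cat, the catalase that removes hydrogen peroxide, had 576, 505 and 535 CPM in the wild-type mice and 292, 387 and 303 CPM in the KO mice (-0.72 ± 0.13, adjusted p = 0.00219). Lonp2, the protease of the matrix, had 147, 163 and 162 CPM in the wild-type mice and 97.8, 124 and 114 CPM in the KO mice (-0.49 ± 0.12, adjusted p = 0.00755). Both were without overlap, and their calls were lost in 2 (Cat) and 3 (Lonp2) of 14 alternative fits.

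A list of further peroxisome genes outside the 39 was also read. Of 47 listed, 36 were tested, and 25 were lower, 1 was higher and 10 were not called, with a median log2 fold change of -0.79. Among all genes tested 22.3% were lower and 23.7% higher. Slc27a2, an acyl-CoA synthetase for very long chains, had 109, 76.8 and 37.9 CPM in the wild-type mice and 1.43, 1.19 and 0.706 CPM in the KO mice, 67.2-fold lower (log2 fold change -6.15 ± 0.46, adjusted p = 1.54e-05). Acox2, the oxidase for bile acid intermediates and branched chains, was the gene that rose, from 9, 14 and 10 counts to 253, 182 and 569 (0.970, 1.48 and 1.30 CPM to 27.8, 24.1 and 33.5 CPM; 4.50 ± 0.24, adjusted p = 3.31e-06). Both were far outside the range of the 39 genes, from -2.40 to 0.97. Acad11, an acyl-CoA dehydrogenase, changed by -1.60 ± 0.15 (adjusted p = 4.64e-05) and Zadh2, a reductase, by -1.35 ± 0.13 (adjusted p = 6.24e-05).

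Mitochondrial β-oxidation was lower in 17 of 17 genes, with a median log2 fold change of -1.41. Among all genes tested 22.3% were lower, and 54.4% of those with at least 100 CPM in wild type. The lowest wild-type mean of the 17 was 389 CPM (Cpt2), so the higher share is the one at their level. After quantile normalization 16 of 17 were lower, beside 23.7% of all genes tested. The median was then -0.83, beside -0.72 for the 39 peroxisomal genes. Within-mouse log2 ratios of a peroxisomal enzyme to its mitochondrial counterpart differed between KO and wild-type mice by 0.55 for Acaa1a to Acaa2 (exact permutation p = 0.1, adjusted over 4 pairs p = 0.2) and by 1.14 for Crot to Cpt2 (exact permutation p = 0.1, adjusted p = 0.2). These p-values are two-sided, and 0.1 is the smallest that 3 mice against 3 can give. The log2 ratio of Crot to Cpt2 lay between -3.70 and -3.36 in the wild-type mice and between -2.52 and -2.25 in the KO mice, without overlap. The differences for Ehhadh to Hadha (0.62, exact permutation p = 0.7, adjusted p = 0.7) and Decr2 to Decr1 (-0.10, exact permutation p = 0.6, adjusted p = 0.7) lay within the spread of the mice. After quantile normalization the difference was -0.0897 for Acaa1a to Acaa2 and -0.37 for Ehhadh to Hadha.

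**Figure D4:**
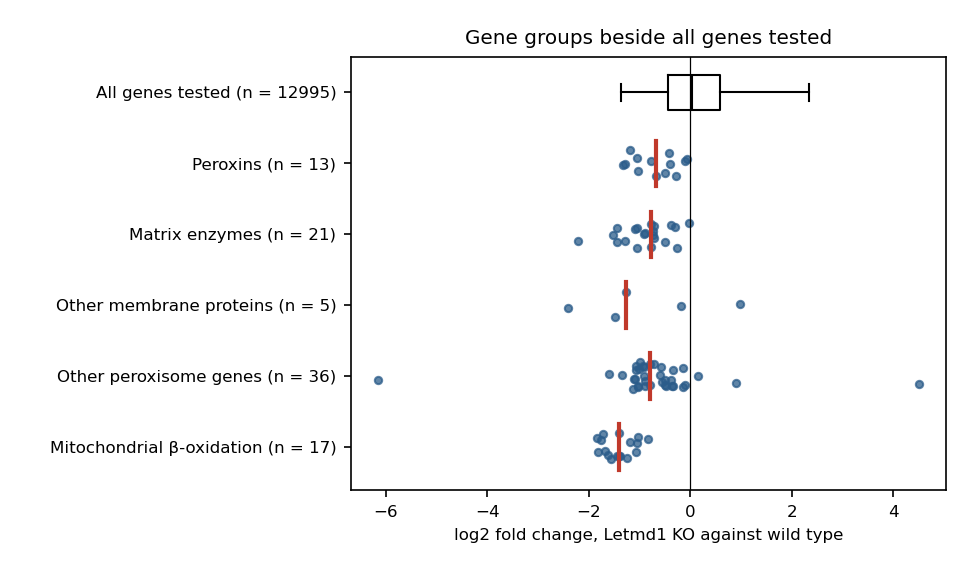
Log2 fold change (Letmd1 KO against wild type) of each gene in 5 gene groups, with a red bar at the median, beside a box plot of all 12995 genes tested (box: quartiles, whiskers: 5th to 95th percentile). Medians were -0.67 for peroxins, -0.78 for matrix enzymes, -0.79 for other peroxisome genes and -1.41 for mitochondrial β-oxidation, which was -0.83 after quantile normalization.

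Of 8 genes for regulators of peroxisomal and brown fat genes, 3 were lower, none was higher and 5 were not called, beside 22.3% lower and 23.7% higher among all genes tested. These calls moved with the fit. DESeq2 called 5 lower, with Ppara, Rxra and Ppargc1a among them and Rxrb not. Scaling by library size alone gave 2 lower and 1 higher (Ppard), beside 10.5% and 45.4% of all genes tested. Prdm16, a coregulator of brown fat identity, changed by -1.36 ± 0.20 (adjusted p = 0.000541), and Ppargc1b, a coactivator, by -1.08 ± 0.16 (adjusted p = 0.000601). Rxrb, a partner of the PPAR receptors, changed by -0.33 ± 0.12 (adjusted p = 0.0456), but its call was lost in 12 of 14 alternative fits, DESeq2 and quantile normalization among them, and its sign turned with libraries scaled by size alone. Ppara, the receptor best known for inducing peroxisomal genes, had 699, 644 and 700 CPM in the wild-type mice and 538, 321 and 604 CPM in the KO mice (-0.48 ± 0.21, adjusted p = 0.0844), and all KO mice lay below the wild-type mice. Pparg, Ppargc1a, Rxra and Ppard changed by -0.18, -0.52, -0.46 and 0.15, with adjusted p of 0.470, 0.0906, 0.0681 and 0.576.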

How the data were processed

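BAT RNA of 6 male mice, 3 of each genotype, was read as QuantSeq 3′ libraries with single-end reads of 75 bases. The authors mapped the reads with Bowtie2, summed unique and multiple alignments over genes in bedtools, and deposited whole-number read counts per mouse that were not normalized. Per the labels the build was mm10. Versions, annotation and the use of strand are not given in the sources used here. The quantile normalization of the study is not in the deposited counts.

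Mice were grouped by the genotype in the labels. The software was edgeR 4.0.16, DESeq2 1.42.0 and limma 3.58.1 under R 4.3.3. After edgeR's default filter (minimum count 10, minimum total 15), TMM-scaled counts of 12995 of 23282 genes were fitted in edgeR and tested by quasi-likelihood, with Benjamini-Hochberg adjustment over all of them and a threshold of 0.05. SE is that of the log2 fold change. On simulated counts of 12995 genes these steps recovered 63 of 96 genes changed 2-fold and 89 of 95 changed 4-fold, with 13 calls among 11922 unchanged genes. Only 191 changed genes were tested there, drawn evenly from both directions, whereas 46.0% of genes were called in the data. The simulation therefore cannot show how many false calls arise when the scaling differs between genotypes as it does here. Within a genotype, no pair of mice was as close as sampling noise alone would give.

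The genes and lists were chosen with earlier results of these data known. Each of the 39 genes is named in its role group. Values per mouse are given for the most negative and most positive gene of each group and for genes of at least 100 CPM, and further ones for single genes chosen after their values were seen. The rule also names all regulators and the called genes at both ends of the further peroxisome list, of which 1 rose. For within-mouse log2 ratios of counts, with 1 added to each count, exact permutation tests were two-sided. Alternatives were scaling by library size, RLE factors, quantile normalization with limma, DESeq2, no filter, a mean of at least 50 counts, the replicate number as a block, the mean log2 CPM of the muscle markers as a covariate, a 2-fold minimum and leaving out each mouse. A search for targeting signals in protein sequences was not run.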

Additional observations from a re-analysis of the deposited data

How the results depend on the processing

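Of the 28 genes called among the 39, 17 were called in the same direction in all 14 alternative fits. Calls were lost in 7 fits for Pex14, in 3 for Pex10, Acot4 and Lonp2, in 2 for Acaa1b, Cat and Hacl1, and in 1 for Pex13, Acaa1a, Amacr and Pecr. Genes past the threshold numbered 5978 and went to 3456 with the muscle covariate, to 3048 with a 2-fold minimum and to between 4842 and 5868 without 1 mouse. Scaling by library size alone gave 1368 genes lower and 5899 higher (81.2% of calls higher, beside 51.6%). It gave 5 peroxins lower, 10 matrix enzymes lower, 1 matrix enzyme higher (Agps) and 2 of the 39 genes higher, with medians of -0.25 for peroxins and -0.37 for matrix enzymes. The 2-fold minimum left 16 of the 39 genes lower, 0 higher, 5 peroxins and 8 matrix enzymes. The muscle covariate left 10 matrix enzymes lower, with a median of -0.86. Quantile normalization moved the peroxin median to -0.54. Without 1 mouse, between 25 and 30 of the 39 genes, between 6 and 9 peroxins and between 15 and 18 matrix enzymes were lower, and the medians ran from -0.74 to -0.59 for peroxins and from -0.91 to -0.73 for matrix enzymes. The causes of these moves were not tested.

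The replicate numbers did not pair the mice (correlations of deviations 0.069, -0.11 and -0.09 for the same number). With the replicate number as a block, 28 of the 39 genes were lower, 5599 genes passed the threshold in all, and the matrix enzyme median was -0.91.

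Quantile normalization changed the log2 ratio differences to -0.0897 for Acaa1a to Acaa2, -0.37 for Ehhadh to Hadha, -0.35 for Decr2 to Decr1 and 0.85 for Crot to Cpt2, and without 1 mouse that for Ehhadh to Hadha ran from -0.20 (without KO mouse 2) to 1.05. Among 713 values of single genes under alternatives, 21 changed sign. With library size alone these were Pex7 (0.15), Pex11a (0.024), Pex11g (0.36), Pex26 (0.32), Acox3 (0.12), Abcd2 (0.22), Crot (0.16), Acot8 (0.040), Agps (0.39), Pparg (0.25) and Rxrb (0.089). With quantile normalization they were Ppard (-0.10) and Pparg (0.22), with the muscle covariate Ppard (-0.14), and with a mean of at least 50 counts Agps (0.019). Leaving out 1 mouse at a time, the ranges that crossed 0 were -0.13 to 0.046 for Pex11g, -0.35 to 0.037 for Pex26 (both above 0 without KO mouse 2), -1.12 to 0.25 for Abcd2 (above 0 without KO mouse 1 or 3), -0.072 to 0.012 for Agps (above 0 without KO mouse 1) and -0.015 to 0.23 for Ppard (below 0 without KO mouse 3). The search for targeting signals was not run.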
